A study of Mus musculus with 8 samples.

Results

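The kinesin motor genes of mouse oral epithelium were compared between germ-free (GF) and specific pathogen-free (SPF) animals. They were taken as every protein-coding gene of the deposited table whose symbol is Kif followed by a number and, where present, a letter and a further digit, which gave 36 of 22911 genes. By the known role of the motor, 11 were grouped as mitotic, 13 as transport, 6 as cilium and 6 as other kinesins. Kif2a, which acts at spindle poles and also in cells that do not divide, was grouped with the others, and Kif2b, also a mitotic motor, is not analysed here. GF mice carry no microorganisms, and SPF mice carry a resident microbiota without listed pathogens. All animals were untreated adults of the inbred C57BL/6 strain. Each library came from the buccal epithelium of 1 animal, freed with dispase II and sorted by flow cytometry, and total RNA depleted of ribosomal RNA was sequenced. There were 4 GF libraries, numbered 1 to 4, and 4 SPF libraries, numbered 1, 3, 4 and 5. Means are given with the standard deviation (SD) over the n = 4 libraries of a group.

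Kinesins are ATP-driven motors that walk along microtubules or take them apart. Mitotic kinesins build the spindle, move chromosomes and close the cell at cytokinesis, and most are made only in cells that are preparing to divide. Transport kinesins carry vesicles, mitochondria, RNA and endosomes in dividing and resting cells alike. In a stratified epithelium such as the lining of the cheek, division takes place in and near the basal layer, while the layers above no longer divide.

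Gene counts summed to between 10430507 and 15524731 in GF libraries and between 10260264 and 14730960 in SPF libraries. Kinesin genes took 0.252 to 0.307% of these counts in GF and 0.265 to 0.320% in SPF. Values are given as CPM, counts scaled to library size with TMM factors. The 10 epithelial markers, among them basal and suprabasal keratins, summed to 36251 to 45629 CPM in GF and 42384 to 52254 CPM in SPF. Of these markers 9 had a lower fitted level in GF, with a median of −0.21 on the log2 scale, and 0 of the 10 were called. Markers of fibroblasts, the cells of the tissue under the epithelium, summed to 84.1, 143, 721 and 93.4 CPM in GF libraries 1 to 4, against 59.7 to 98.1 CPM in SPF. Of 8 fibroblast markers tested, 7 had a higher fitted level in GF, 0 of those 7 were called and Thy1 fell, with a median of 3.43 over the list. Dcn alone had 28.4 to 86.2 CPM in GF and 28.4 to 40.8 CPM in SPF. Endothelial markers summed to 16.3, 44.1, 132 and 13.3 CPM in GF libraries, each above the SPF range of 4.73 to 12.4 CPM. All 6 tested had a higher fitted level in GF, with a median of 3.43, and 1, Emcn, rose. Neuron and Schwann cell markers summed to 68.5 to 85.7 CPM in GF and 53.4 to 63.2 CPM in SPF, and 1 of 3 tested, Mbp, rose. Sums in GF and SPF overlapped for markers of leukocytes (9.71 to 23.8 CPM in GF and 6.31 to 14.4 CPM in SPF), muscle (19.5 to 35.8 CPM in GF and 16.9 to 34.2 CPM in SPF) and melanocytes (5.96 to 17.8 CPM in GF and 2.54 to 10.1 CPM in SPF), with 0 called. No marker of any list was at 0 in all libraries of a group. The hour at which tissue was taken, and any batch of preparation, are not stated in the sources used here, and a difference of either kind between the groups cannot be told apart from the group difference.

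Of the 36 kinesin genes, 34 had enough counts to be tested, and 9 of these passed an adjusted p of 0.05 in the quasi-likelihood test of edgeR (Benjamini-Hochberg over 15098 genes), where 4.18% of all genes tested did. Such genes are referred to as called. The 6 that fell in GF were all mitotic: Kif15, Kif14, Kif4, Kif11, Kif18b and Kif20b. The 3 that rose were the transport motors Kif13a and Kif1b and the microtubule regulator Kif21a. The other 25 were not called. Kif19a and Kif28, with 29 and 42 counts over the 8 libraries, were not tested.

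**Figure D1:**
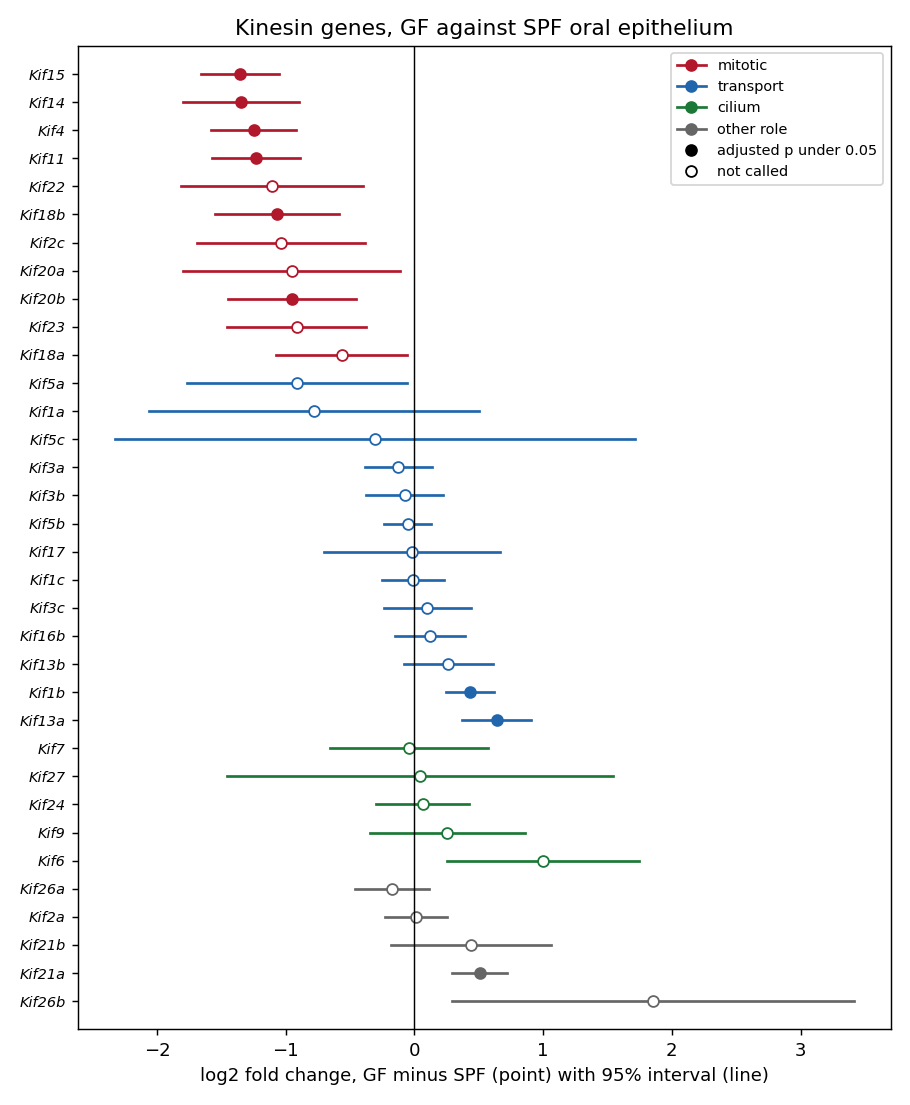
Fitted difference of each of the 34 tested kinesin genes, GF minus SPF, on the log2 scale (horizontal axis), with bars for the 95% interval, grouped by class. All 11 mitotic genes lie left of 0, between −1.35 and −0.57, whereas transport genes lie on both sides, between −0.91 and 0.64.

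Each of the 11 mitotic kinesins had a lower fitted level in GF than in SPF oral epithelium, and 6 passed the test. The median difference was −1.07 on the log2 scale, against 0.02 for all genes tested. Of the 11, 6 fell, 0 rose and 5 were not called, where 2.33% of all genes tested were called lower. With Kif2a (0.01) counted as mitotic, 6 of 12 fell and 11 of 12 lay below 0. All 4 GF libraries lay below all 4 SPF libraries for 10 of the 11, where 13.1% of all genes tested had groups that did not overlap in either direction. Summed over the 11 genes, GF libraries 1 to 4 held 566, 524, 309.6 and 324 CPM, against 804, 1031, 989.7 and 844 CPM in SPF libraries 1, 3, 4 and 5. The means were 431 ± 133 CPM in GF and 917 ± 110 CPM in SPF. In bulk RNA, fewer dividing cells and less mitotic RNA per dividing cell cannot be told apart.

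Both motors that keep the spindle bipolar fell. Kif15 (ENSMUSG00000036768, chr9:122951046-123018733, plus strand), a kinesin-12 that helps hold the spindle poles apart, had 43.5, 40.6, 28.8 and 34.0 CPM in GF, against 75.2, 104, 94.8 and 101 CPM in SPF. The highest GF library lay well under the lowest SPF library. The fitted difference was −1.35 ± 0.14 (SE; 95% interval −1.66 to −1.05; edgeR adjusted p = 0.000225), a level 2.56-fold lower in GF. Kif11 (ENSMUSG00000012443, chr19:37376403-37421859, plus strand), the kinesin-5 that slides antiparallel microtubules apart to separate the poles, had 74.3, 72.5, 49.3 and 50.5 CPM in GF, against 125, 171, 153 and 130 CPM in SPF. The groups did not overlap, and GF libraries 3 and 4 were the lowest. The difference was −1.23 ± 0.16 (edgeR adjusted p = 0.00247), 2.35-fold lower in GF.

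Of the 2 chromokinesins, which ride on chromosome arms, Kif4 fell and Kif22 was not called. Kif4 (ENSMUSG00000034311, chrX:100625737-100727214, plus strand), which acts in chromosome condensation and at the spindle midzone, had 47.5, 44.7, 33.5 and 28.2 CPM in GF, against 83.6, 95.9, 103 and 84.0 CPM in SPF. All GF libraries were below all SPF libraries, and the difference was −1.25 ± 0.15 (edgeR adjusted p = 0.00105), 2.38-fold lower in GF. Its exons share 832 bases with Pdzd11 on the opposite strand. Kif22, which pushes chromosome arms away from the poles, averaged 21.6 ± 9.88 CPM in GF and 46.6 ± 6.11 CPM in SPF. Its difference was −1.11 with a 95% interval of −1.81 to −0.40 (edgeR adjusted p = 0.0921).

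Among the motors of the midzone and of cytokinesis, Kif14 and Kif20b fell, and Kif23 and Kif20a were not called. Kif14 (ENSMUSG00000041498, chr1:136466343-136531511, plus strand), which works with citron kinase in the last steps of division, had 39.0, 37.5, 20.7 and 24.1 CPM in GF, against 79.7, 91.6, 67.8 and 69.5 CPM in SPF. The groups did not overlap, and the difference was −1.35 ± 0.20 (edgeR adjusted p = 0.00684), 2.54-fold lower in GF. Kif20b (ENSMUSG00000024795, chr19:34922361-34975745, plus strand), needed for abscission, had 74.0, 69.7, 42.3 and 39.7 CPM in GF, against 98.3, 127, 117 and 94.5 CPM in SPF. GF libraries 1 and 2 were the nearest to SPF, without overlap, and the difference was −0.95 ± 0.22 (edgeR adjusted p = 0.0473), 1.93-fold lower in GF.

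Kif23, the motor of the centralspindlin complex that bundles midzone microtubules, had 113, 87.2, 52.4 and 61.3 CPM in GF, against 129, 164, 161 and 137 CPM in SPF. The groups did not overlap, but GF library 1 stood close to SPF library 1. The difference was −0.91 ± 0.23, with a 95% interval of −1.45 to −0.37 (edgeR adjusted p = 0.075). Kif20a, which brings Aurora B to the midzone, had 68.4, 76.0, 33.3 and 27.3 CPM in GF, against 86.4, 110.2, 115 and 86.4 CPM in SPF. GF libraries 1 and 2 stood far above GF libraries 3 and 4, and the groups did not overlap. The difference was −0.95 ± 0.35, with a 95% interval of −1.80 to −0.11 (edgeR adjusted p = 0.205). The exons of Kif20a share 1271 bases with Cdc23 on the opposite strand.

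Of the motors that set microtubule length, Kif18b fell, and Kif2c and Kif18a were not called. Kif18b (ENSMUSG00000051378, chr11:102905529-102925124, minus strand), which shortens astral microtubules, had 17.7, 20.5, 10.04 and 16.1 CPM in GF, against 25.6, 44.0, 35.2 and 29.5 CPM in SPF. SPF library 1 was the nearest to GF, without overlap, and the difference was −1.07 ± 0.22 (edgeR adjusted p = 0.021), 2.09-fold lower in GF. Kif2c, which depolymerises microtubules at kinetochores, had 35.7, 31.5, 16.7 and 15.97 CPM in GF, against 41.3, 46.6, 65.0 and 52.5 CPM in SPF. Again GF libraries 3 and 4 were the lowest, and the groups did not overlap. The difference was −1.04 ± 0.29, with a 95% interval of −1.69 to −0.39 (edgeR adjusted p = 0.0863). Kif18a, which damps chromosome movements at the metaphase plate, was the only mitotic member whose groups overlapped. It averaged 15.2 ± 5.14 CPM in GF and 22.4 ± 5.00 CPM in SPF, with a difference of −0.57 (95% interval −1.07 to −0.06; edgeR adjusted p = 0.202).

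**Figure D2:**
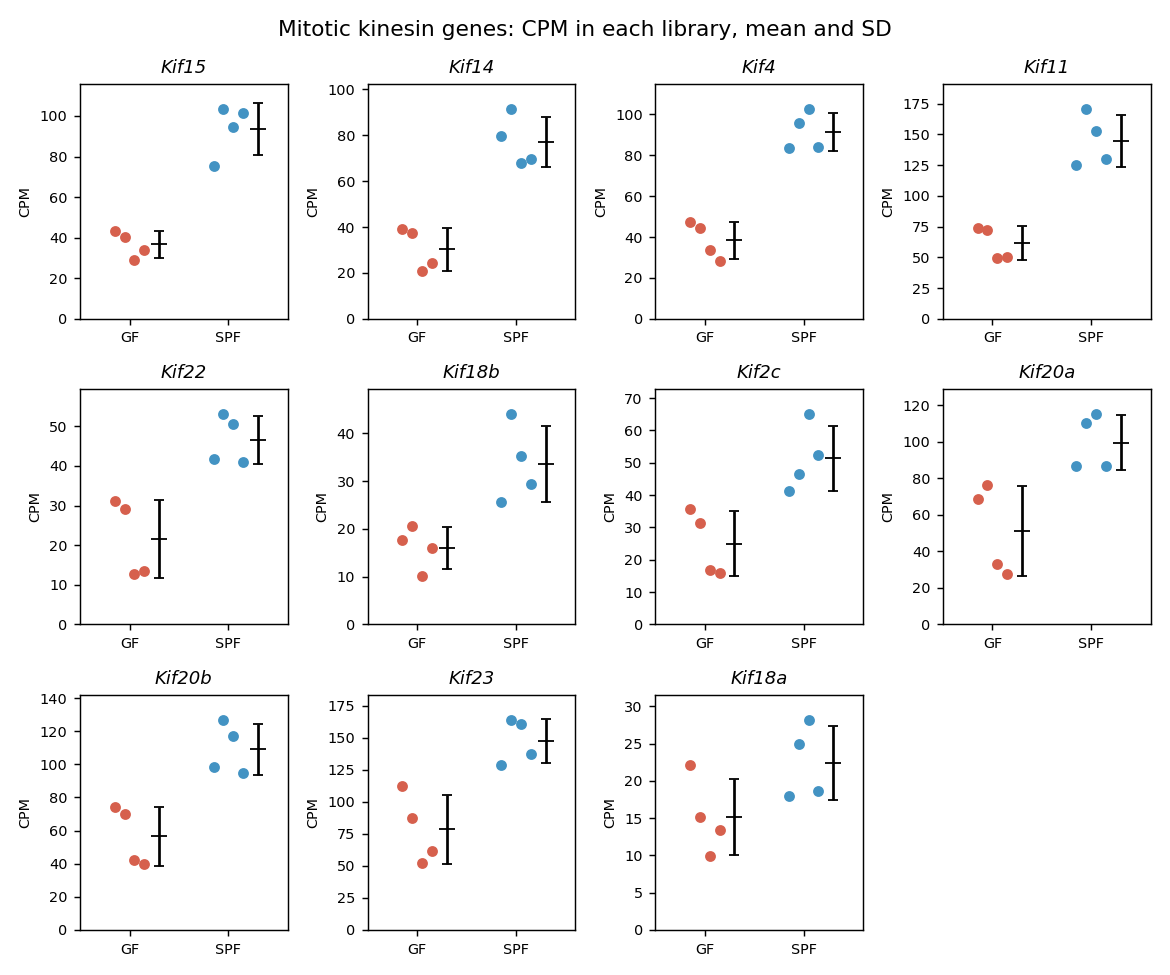
CPM of each of the 11 mitotic kinesin genes (vertical axes, each from 0) in every library, with GF left of SPF and the mean and SD beside the points. GF libraries 3 and 4 are the lowest points of most panels, and the groups are apart in every panel except that of Kif18a.

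The 11 genes ordered the libraries in much the same way, within the groups as well as between them. GF library 3 was the lowest of the 8 libraries for 7 genes and GF library 4 for the other 4. GF library 1 was the highest GF library for 9. SPF library 3 was the highest of the 8 for 7 genes and SPF library 4 for the other 4, while SPF library 1 was the lowest SPF library for 8. Beside these mitotic values, the fibroblast score, a mean log2 level over the fibroblast markers, was 2.26, 3.16, 5.41 and 2.86 in GF libraries 1 to 4, against 1.54 to 2.69 in SPF. It was above every SPF library in GF libraries 2, 3 and 4. Beyond a fit with that score, the part of other cells in the mitotic values was not tested. With the fibroblast score of each library as a covariate, edgeR called 0.417% of all genes and 3 of the 11: Kif15 (−1.14 ± 0.17), Kif4 (−1.16 ± 0.20) and Kif11 (−1.05 ± 0.19). Kif14 then had −0.97 ± 0.20 (edgeR adjusted p = 0.0558), and all 11 differences stayed below 0, with a median of −0.75.

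The calls differed in how far they held. Kif15 and Kif4 were called under all 17 alternative settings, which included leaving out each library in turn. The call of Kif14 was lost only with the fibroblast covariate and that of Kif11 only with a replicate block. Kif18b lost its call without GF library 4, SPF library 3 or SPF library 4, with the block and with the covariate. Kif20b kept its call under 5 of the 17 settings: upper-quartile factors, DESeq2, voom, the filter at 1 CPM and the omission of GF library 1. Without GF library 1, Kif22, Kif2c and Kif23 were called as well, which made 9 of 11. The DESeq2 Wald test, which called 8.31% of all genes, called 9 of the 11, and limma voom with quality weights, which called 6.78%, called all 11. The authors' deposited table, which lists 5.21% of its genes at an adjusted p under 0.05, has 9 of the 11 higher in SPF, the exceptions being Kif20a and Kif18a.

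Partners of these motors showed the same direction. All 12 listed partners had a fitted difference below 0, with a median of −1.04. Of them 6 fell, where 2.33% of all genes tested did, 0 rose and 6 were not called. Tpx2, which loads Aurora A and Kif15 onto the spindle, had 93.0, 75.9, 54.3 and 57.3 CPM in GF, against 135, 185, 177 and 155 CPM in SPF (−1.22 ± 0.18, edgeR adjusted p = 0.00666). Aurkb, the Aurora B kinase that Kif20a carries, averaged 13.2 CPM in GF and 34.8 CPM in SPF (−1.40 ± 0.25, edgeR adjusted p = 0.0135). Birc5, the survivin subunit of the same complex, averaged 28.4 CPM in GF and 64.6 CPM in SPF (−1.18 ± 0.24, edgeR adjusted p = 0.0278). Cenpe and Kifc1, kinesins of this list whose symbols lie outside the rule for members, were not called. Cenpe had −1.16 ± 0.29 (edgeR adjusted p = 0.0785), without overlap of the groups. Kifc1 had −0.76 ± 0.22 (edgeR adjusted p = 0.0719), and its groups overlapped. Of 16 listed genes of DNA replication, 13 had a fitted difference above 0, with a median of 0.38, where 7985 of all 15098 genes tested lay above 0. Only 4 passed the test: 3 rose and 1 fell, where 1.85% of all genes rose and 2.33% fell. Mcm6, of the replicative helicase, averaged 116 ± 15.6 CPM in GF and 66.9 ± 14.1 CPM in SPF (0.79 ± 0.15, edgeR adjusted p = 0.0157). Mcm2, of the same helicase, averaged 66.2 ± 16.1 CPM in GF and 36.6 ± 6.59 CPM in SPF (0.85 ± 0.18, edgeR adjusted p = 0.0239). Rrm1, the large subunit of ribonucleotide reductase, averaged 98.4 ± 9.98 CPM in GF and 137 ± 14.8 CPM in SPF (−0.48 ± 0.10, edgeR adjusted p = 0.0174).

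Because 6 mitotic kinesin genes fell together, the promoters of the members were searched on both strands for a pair of short motifs of cell cycle genes. One, the cell cycle genes homology region (CHR), reads TTTGAA on one strand and, on the opposite strand, reads TTCAAA, and is bound by the MuvB core of the DREAM complex. The other is the CCAAT box, which on the opposite strand reads ATTGG, bound by NF-Y, and the motifs were searched separately, so that matches of both may overlap. RefSeq promoter windows (GRCm38.p6), from 250 bases before to 50 bases after the annotated start, matched 29 of the 36 members by symbol. The last 100 bases are printed 5′ to 3′ on the strand of the gene, so that the start follows base 50, with CHR letters in capitals. They are shown for the 6 mitotic genes that fell and, for contrast, for Kif13a and Kif21a, which rose. The printed windows are chr19:37376332-37376431 on the plus strand for Kif11, chr9:122951031-122951130 on the plus strand for Kif15, chr11:102925075-102925174 on the minus strand for Kif18b, chr19:34922308-34922407 on the plus strand for Kif20b, chrX:100626015-100626114 on the plus strand for Kif4, chr1:136467798-136467897 on the plus strand for Kif14, chr13:46929669-46929768 on the minus strand for Kif13a, chr15:91049902-91050001 on the minus strand for Kif21a.
Kif11: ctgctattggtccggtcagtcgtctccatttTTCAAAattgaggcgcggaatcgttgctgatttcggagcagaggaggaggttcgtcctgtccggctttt
Kif15: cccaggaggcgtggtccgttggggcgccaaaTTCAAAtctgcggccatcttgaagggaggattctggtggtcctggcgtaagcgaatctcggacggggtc
Kif18b: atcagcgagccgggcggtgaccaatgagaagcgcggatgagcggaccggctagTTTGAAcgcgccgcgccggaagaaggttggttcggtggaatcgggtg
Kif20b: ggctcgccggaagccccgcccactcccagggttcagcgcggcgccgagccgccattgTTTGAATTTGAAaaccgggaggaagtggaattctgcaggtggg
Kif4: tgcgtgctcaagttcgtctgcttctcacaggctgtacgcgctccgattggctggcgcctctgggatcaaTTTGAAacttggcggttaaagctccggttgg
Kif14: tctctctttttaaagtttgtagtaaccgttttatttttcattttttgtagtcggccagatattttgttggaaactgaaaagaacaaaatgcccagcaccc
Kif13a: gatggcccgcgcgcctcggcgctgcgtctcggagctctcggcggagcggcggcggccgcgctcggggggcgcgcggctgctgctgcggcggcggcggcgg
Kif21a: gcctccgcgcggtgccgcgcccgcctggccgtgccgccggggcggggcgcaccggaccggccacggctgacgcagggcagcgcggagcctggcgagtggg

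Matches of the CHR lay close to the start in 7 of the 10 mitotic kinesin genes with a window: Kif11, Kif15, Kif18b, Kif20b, Kif22, Kif23 and Kif4. The first base of the nearest match lay 19 bases before the start in Kif11 and Kif15 and 17 in Kif22, each as TTCAAA. It lay at base 2 after the start in Kif23, 3 in Kif18b and 19 in Kif4, as TTTGAA. Kif20b held the motif back to back, at bases 7 and 13. Kif15 and Kif22 each held a further match, 234 and 215 bases before the start. Of all 32851 windows, 4.94% held the CHR letters within the same 100 bases, a width chosen after the matches were seen, and 17.9% held them anywhere in 300 bases. Counted by gene, as for the members, 5.72% of 27025 genes held them within the 100 bases. Over 300 bases the letters were found in 9 of the 10, with Kif14 at 228 and Kif2c at 103 bases before the start. The RefSeq starts of those genes lie 1505 and 3867 bases inside the genes as annotated in the deposited table, and that of Kif4 lies 328 bases inside. Kif18a held no match of the CHR in its window.

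Among the 10 transport kinesins with a window, 1 held the CHR letters near the start, in the second window of Kif1a. The count was 0 of 5 for the cilium kinesins and 1 of 4 for the others, in Kif26b. The RefSeq start of the second Kif1a window lies 19471 bases inside the gene as annotated in the deposited table. Those of Kif17 and Kif27 lie 11816 and 4175 bases inside. CCAAT letters within the 100 bases were found in 4 of 10 mitotic, 1 of 10 transport, 0 of 5 cilium and 0 of 4 other genes. They were found in 13.6% of all windows and, counted by gene, in 15.6% of all genes with a window. A match of letters is a description of the sequence and not a site shown to be bound. Kif20a, Kif5a, Kif5b, Kif13b, Kif19a, Kif21b and Kif28 were not matched.

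**Figure D3:**
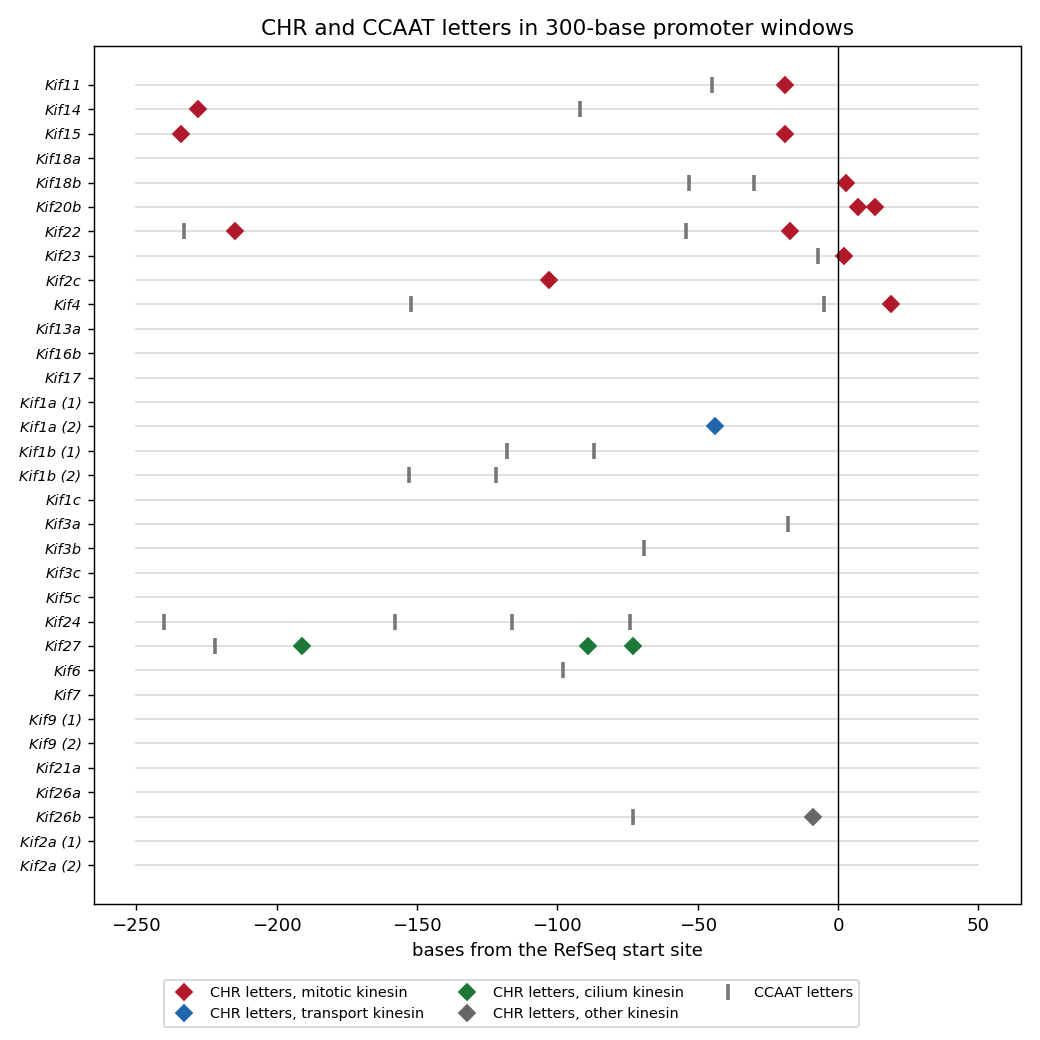
Positions of CHR and CCAAT letters in the RefSeq promoter windows of kinesin genes, by distance in bases from the annotated start (horizontal axis). CHR letters lie within 50 bases of the start in 7 mitotic genes and in Kif1a and Kif26b. That width was chosen after the matches were seen.

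Transport kinesins had fitted differences on both sides of 0. Their median difference was −0.02, with 8 of 13 below 0 and 5 above, and summed CPM was 1695, 1807, 1598 and 1548 in GF libraries, against 1514, 1658, 1435 and 1414 in SPF libraries. The sums overlapped, with means of 1662 ± 115 CPM in GF and 1505 ± 111 CPM in SPF. Of the 13, 2 rose, 0 fell and 11 were not called, where 1.85% of all genes tested were called higher. The ratio of the mitotic to the transport sum was 0.334, 0.290, 0.194 and 0.209 in GF libraries, against 0.531, 0.622, 0.690 and 0.597 in SPF libraries. Every GF ratio was below every SPF ratio.

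**Figure D4:**
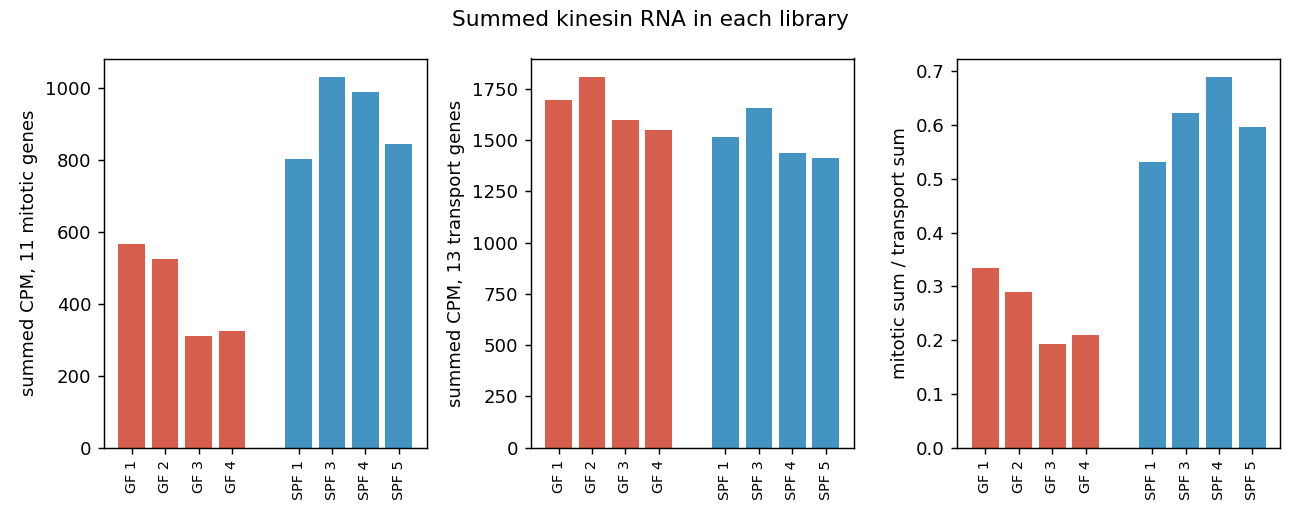
Summed CPM of the 11 mitotic genes (left), of the 13 transport genes (middle) and their ratio (right) in each library, GF bars left of SPF bars, all axes from 0. The mitotic sums are 309.6 to 566 CPM in GF and 804 to 1031 CPM in SPF, while the transport sums overlap.

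The transport motors that rose belong to the kinesin-3 family of endosome and organelle carriers. Kif13a (ENSMUSG00000021375, chr13:46749087-46929867, minus strand), which moves recycling endosomes, had 269, 341, 238 and 278 CPM in GF, against 193, 212, 162 and 154.5 CPM in SPF. The lowest GF library was above the highest SPF library, and the difference was 0.64 ± 0.12 (95% interval 0.37 to 0.91; edgeR adjusted p = 0.0136), 1.56-fold higher in GF. Kif1b (ENSMUSG00000063077, chr4:149176319-149307693, minus strand), a carrier of mitochondria and synaptic vesicle precursors, had 268, 289.5, 247 and 249 CPM in GF, against 198.5, 209.7, 198 and 176 CPM in SPF. These groups did not overlap either, and the difference was 0.43 ± 0.09 (95% interval 0.25 to 0.62; edgeR adjusted p = 0.014), 1.35-fold higher in GF. Without SPF library 4 the call of Kif13a was lost, and without SPF library 5 that of Kif1b. Both calls were also lost with the fibroblast covariate and in fits on the 6 libraries that share replicate numbers.

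The most abundant transport motors that were not called had differences near 0 with narrow intervals. Kif5b, the heavy chain of conventional kinesin in most tissues, had 527, 445, 505 and 482 CPM in GF, against 471, 549.8, 507 and 503 CPM in SPF, and the difference was −0.05 (95% interval −0.24 to 0.13). Kif1c, a carrier of vesicles and RNA, had 406, 467, 380 and 338 CPM in GF, against 440, 446, 354 and 362 CPM in SPF, with a difference of −0.01 (−0.25 to 0.23). The groups overlapped for both genes. Kif16b, which moves early endosomes, had 84.1, 111, 83.5 and 72.0 CPM in GF, against 80.7, 91.2, 71.6 and 79.5 CPM in SPF, and the difference was 0.12 (−0.15 to 0.39). The kinesin-2 subunits Kif3a, Kif3b and Kif3c differed by −0.12 (−0.39 to 0.14), −0.08 (−0.37 to 0.22) and 0.10 (−0.24 to 0.44). The exons of Kif3c share 2617 bases with 1110002L01Rik and 588 with Gm48512, both on the opposite strand. Kif13b, a relative of Kif13a, differed by 0.26 (−0.08 to 0.61). The neuronal motors were the scarcest of the class. Kif5a averaged 1.99 ± 0.531 CPM in GF and 3.80 ± 1.42 CPM in SPF (−0.91, 95% interval −1.77 to −0.06; edgeR adjusted p = 0.225). Kif1a, Kif5c and Kif17 averaged 1.04, 0.964 and 3.39 CPM in GF and 1.82, 1.19 and 3.43 CPM in SPF, and the 95% intervals were wide, −2.06 to 0.50 for Kif1a, −2.33 to 1.71 for Kif5c and −0.70 to 0.66 for Kif17.

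**Figure D5:**
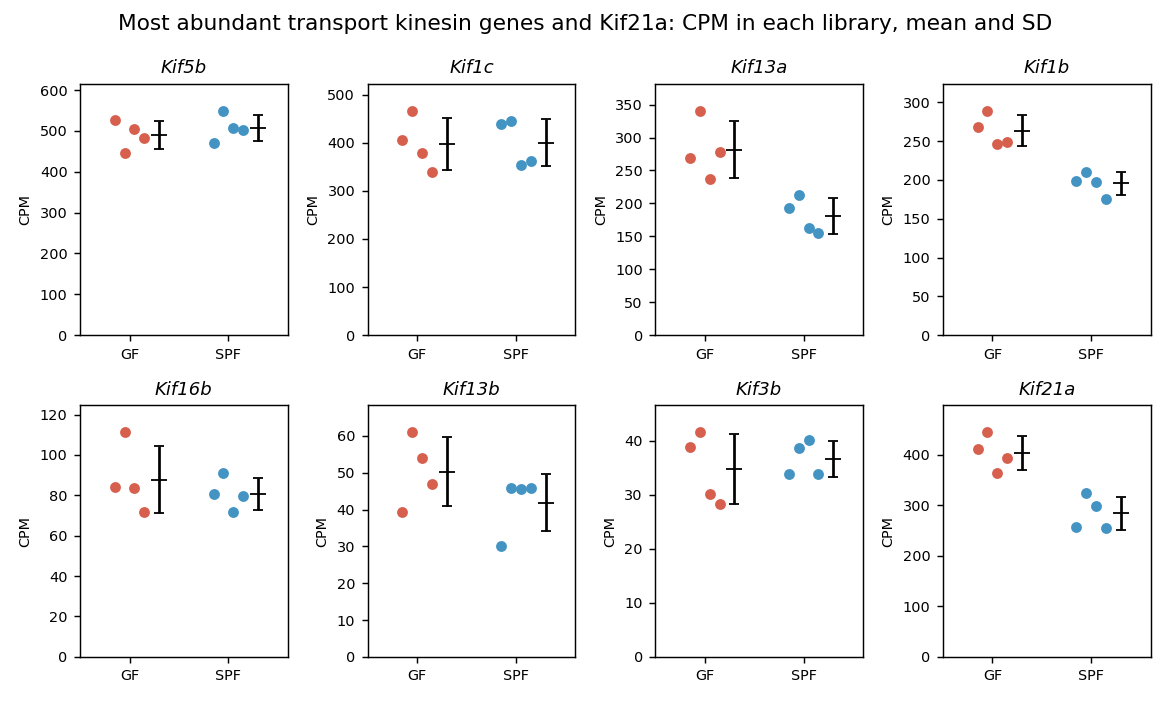
CPM of the 7 most abundant transport kinesin genes and of Kif21a (vertical axes, each from 0) in every library, with GF left of SPF and the mean and SD beside the points. The groups are apart for Kif13a, Kif1b and Kif21a and overlap in the other 5 panels.

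Among adaptors and genes of dynein, the opposing motor, 1 of 17 and 1 of 18 were called, shares near the 4.18% of all genes tested. Of 17 adaptor and accessory genes tested, Kifc3, a minus-end directed kinesin of epithelial junctions, rose, with 20.8 ± 3.24 CPM in GF and 11.4 ± 2.48 CPM in SPF (0.86 ± 0.20, edgeR adjusted p = 0.0252), 0 fell and the median was 0.00. Kifap3, the accessory subunit of kinesin-2, had 0.45 ± 0.13 (edgeR adjusted p = 0.0727), and Klc1, a kinesin light chain, −0.26 ± 0.10 (edgeR adjusted p = 0.176). Of 18 dynein and dynactin genes tested, Nde1, a dynein regulator that also acts in mitosis, fell, with 38.7 ± 5.21 CPM in GF and 54.3 ± 3.88 CPM in SPF (−0.49 ± 0.12, edgeR adjusted p = 0.031). The light chains Dynll1 and Dynlrb1 had −0.29 ± 0.10 and −0.27 ± 0.09 (edgeR adjusted p = 0.117 and 0.119), and the median of that list was −0.13.

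Relatives within a kinesin family were also set against each other inside each library, which needs no scaling between libraries. The pairs were chosen with earlier results of these data known, and the genes of 2 pairs were called in opposite directions, so the ratios are a description with no test. Kif2c and Kif2a are both depolymerases of the kinesin-13 family. The exons of Kif2a share 1229 bases with Dimt1 on the opposite strand. The ratio of Kif2c to Kif2a counts was 0.542, 0.535, 0.238 and 0.264 in GF, against 0.622, 0.752, 1.23 and 0.720 in SPF. The difference in mean log2 ratio was −1.13. For the kinesin-4 genes Kif4 and Kif21a the ratio was 0.116, 0.101, 0.0921 and 0.0718 in GF, against 0.325, 0.296, 0.343 and 0.329 in SPF, a difference of −1.79. For the kinesin-3 genes Kif14 and Kif13a it was 0.145, 0.110, 0.0871 and 0.0872 in GF, against 0.414, 0.431, 0.418 and 0.450 in SPF, a difference of −2.03. In each of the 3 pairs all GF ratios lay below all SPF ratios.

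No cilium kinesin was called by edgeR, at an unadjusted p under 0.05 for 1 of the 5 tested, Kif6. Kif24, which restrains cilium formation at the mother centriole, had 18.4, 25.5, 17.2 and 25.4 CPM in GF, against 18.4, 22.0, 23.4 and 18.8 CPM in SPF (0.06, 95% interval −0.30 to 0.42). Kif7, a regulator of Hedgehog signalling at the cilium tip, had 10.4, 10.6, 7.04 and 5.20 CPM in GF, against 9.36, 10.1, 5.19 and 9.69 CPM in SPF (−0.05, −0.66 to 0.57). The groups overlapped for both genes. The exons of Kif7 share 877 bases with 9330171B17Rik on the opposite strand. Kif9, a motor of motile cilia, had 3.97, 5.02, 5.50 and 5.48 CPM in GF, against 4.17, 4.93, 3.89 and 3.71 CPM in SPF (0.26, −0.35 to 0.86). Kif6, also a motor of motile cilia, averaged 4.78 ± 1.22 CPM in GF and 2.39 ± 0.608 CPM in SPF without overlap (1.00, 0.25 to 1.74; edgeR adjusted p = 0.127). Kif27, a relative of Kif7, averaged 1.11 CPM in GF and 1.07 CPM in SPF, and Kif19a 0.127 CPM in GF and 0.402 CPM in SPF. Of the 20 genes of the intraflagellar transport train tested, 1 was called, near the 4.18% of all genes: Ift80 fell, with 30.6 ± 3.36 CPM in GF and 41.3 ± 2.27 CPM in SPF (−0.43 ± 0.11, edgeR adjusted p = 0.0451), 0 rose and the median was −0.01. Wdr35 and Cluap1 of the same train had 0.23 (edgeR adjusted p = 0.301) and −0.21 (edgeR adjusted p = 0.322).

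Among the remaining kinesins, Kif21a (ENSMUSG00000022629, chr15:90933276-91049948, minus strand), which slows microtubule growth at the cell cortex, rose. It had 412, 445, 365 and 394 CPM in GF, against 257, 324, 299.6 and 255 CPM in SPF, without overlap. The difference was 0.51 ± 0.10 (95% interval 0.30 to 0.72; edgeR adjusted p = 0.0123), 1.42-fold higher in GF. The call was lost with the fibroblast covariate and in fits on the 6 libraries that share replicate numbers. Kif2a, the kinesin-13 relative of Kif2c, had 66.0, 58.9, 70.3 and 60.7 CPM in GF, against 66.5, 62.0, 52.7 and 73.0 CPM in SPF (0.01, 95% interval −0.23 to 0.25). Kif26a, an atypical kinesin without motor activity, had 62.9, 84.9, 61.7 and 54.9 CPM in GF, against 79.7, 80.7, 75.5 and 62.3 CPM in SPF (−0.17, −0.46 to 0.11). The groups of both overlapped.

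Kif26b, its relative, had 19.2, 75.5, 49.4 and 31.5 CPM in GF, against 2.54, 12.3, 19.3 and 13.98 CPM in SPF. GF library 1 lay just under SPF library 4, so that the groups overlapped, and the difference was 1.85 ± 0.65 (95% interval 0.29 to 3.41; edgeR adjusted p = 0.187). In the same order of libraries, the fibroblast score was 2.26, 3.16, 5.41 and 2.86 in GF, against 1.61, 1.54, 2.69 and 1.58 in SPF. The part of other cells in the Kif26b values was not tested. The exons of Kif26b share 909 bases with Gm16564 on the opposite strand. Kif21b, a relative of Kif21a, differed by 0.44 (−0.18 to 1.06). Kif28 had 0, 1.39, 1.15 and 0.186 CPM in GF, against 0.102, 0, 0 and 0 CPM in SPF, and its exons share 155 bases with Ahctf1 on the same strand.

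Per kilobase of exon, Kif21a, Kif5b and Kif1c had the highest kinesin RNA levels in both groups. Kif21a stood at 62.3 CPM per kilobase in GF and 43.9 in SPF, Kif5b at 61.4 in GF and 63.6 in SPF, and Kif1c at 54.7 in GF and 55.0 in SPF. In GF the order of these neighbours was not resolved by their spread. Among the 11 mitotic members, Kif20a was the highest, with 11.8 CPM per kilobase in GF and 22.9 in SPF. The place of Kif20a is uncertain, as its exons share 1271 bases with Cdc23. Kif18a was the lowest of the 11, with 1.54 in GF and 2.28 in SPF. Kif11 stood at 8.26 in GF and 19.4 in SPF, Kif23 at 9.92 in GF and 18.7 in SPF, and Kif4 at 6.98 in GF and 16.6 in SPF. Per kilobase, every mitotic kinesin was thus below Kif5b and Kif1c in both groups.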

How the data were processed

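RNA was measured in 8 libraries, 4 GF and 4 SPF, grouped by the submitters' titles. The deposited table holds, per the file headers, raw counts for each gene and library, which the analysis used. It also holds, per the file headers, the authors' normalized signal (counts divided by a size factor for each library), log2 fold changes with their errors, Wald score, p-values and adjusted p-values of SPF over GF. Those were used only where the text names the authors' deposited table. The submitters' processing notes list the build GRCm38 and, without saying what each did, DESeq2 1.22.2, HTSeq 0.6.0, TopHat2 2.1.1, cutadapt 1.18 and bcl2fastq 2.18.0.12. The sources used here do not state whether counting used the strand; values of members that share exons with another gene are therefore uncertain. All 36 kinesins matched GENCODE M21 (GRCm38) in start and end, and exon lengths came from it.

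Genes were kept by filterByExpr (minimum count 10, minimum total 15), scaled by TMM, fitted with glmQLFit (robust) and tested by edgeR's two-sided quasi-likelihood test with group as the only term. Adjusted p-values (Benjamini-Hochberg) cover all 15098 genes, and a call is an adjusted p under 0.05. "Rose" and "fell" are used of called genes only. Ratios of relatives were formed from counts after adding 1 count, and the permutation test planned for them is not reported. The fibroblast score is the mean log2 of CPM + 1 over its marker list. Alternatives were DESeq2 size factors, upper-quartile factors, DESeq2, limma voom, other filters, a replicate block, the fibroblast score as covariate, another grouping of 3 kinesins and each library left out. The fit on the same 6 libraries without the block was chosen after seeing the data. The procedure was tested on simulated data.

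Values in every library are given for called members and for the 3 uncalled members of each class with the highest mean CPM. Of the lists of partners, adaptors, dynein, intraflagellar transport and DNA replication genes, the 3 with the smallest p are named. The kinesins Cenpe and Kifc1 of the partner list are named as well. Marker lists are given by their sums and counts, with called markers named. The members, classes and lists were chosen with earlier results of these data known, so no list was tested as a set. Each library is a separate animal as the labels count them. Tools were scipy 1.17.1, DESeq2 1.42.0, limma 3.58.1 and edgeR 4.0.16 in R 4.3.3.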

Additional observations from a re-analysis of the deposited data

Results flagged for a closer look

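In 4 of 72 groups of 4 libraries, 1 for each kinesin gene in GF and in SPF, a single library stood apart from the other 3 by more than Dixon's 95% criterion; chance gives about 1 in 20 groups. Kif21b had 28.9 CPM in GF library 2, against 15.97 to 17.4 CPM in the other GF libraries. Kif13b had 30.1 CPM in SPF library 1, against 45.6 to 46.0 CPM in the other SPF libraries. Kif7 had 5.19 CPM in SPF library 4, against 9.36 to 10.1 CPM in the others. Kif28 had 0.102 CPM in SPF library 1, which is 1 count, and was at 0 in the other SPF libraries. With the other 3 at 0, any count above 0 would have been flagged. None of these genes was called, and none is mitotic.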

How the results depend on the processing

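Of 578 values of tested kinesins under alternative settings, 537 kept their side of the threshold, 30 lost a call, 11 gained one and 0 reversed a called direction; 45 uncalled values changed sign. The 6 mitotic calls became 11 with limma voom, 3 with the replicate block (5 in the same 6 libraries without it) and 3 with the fibroblast covariate, and 4 to 9 with a library left out. The 2 transport calls became 0 with the replicate block, 0 in the same 6 libraries without it, 0 with the fibroblast covariate, and 1 to 2 with a library left out. The call of Kif21a also became 0 under those 3 settings, and with Kif21a and Kif21b counted as transport kinesins the class of other kinesins held 0. The mitotic median was −1.36 with voom, −1.38 with the block and −0.75 with the covariate. With a library left out it ran from −1.27 to −0.89, the cilium median from 0.0017 to 0.34 and that of the others from 0.20 to 0.52. The log2 ratio differences then ran from −1.31 to −0.92 for Kif2c to Kif2a, −1.89 to −1.66 for Kif4 to Kif21a and −2.18 to −1.94 for Kif14 to Kif13a. Whether numbers shared by the groups (1, 3 and 4) pair the animals was not settled. Deviations of same-numbered libraries correlated at 0.19, −0.08 and −0.07, and not every library correlated best with its own number. The submitters' source names number the SPF libraries differently from the titles used here. Taken in order, GF libraries 1 to 4 correlated with SPF libraries 1, 3, 4 and 5 at 0.19, 0.17, 0.11 and 0.07. No block was fitted on that order. The block fit, on 6 libraries, called 315 genes of 15208, and the same libraries without it 350. Leaving out 1 library left 284 (SPF library 3) to 688 (GF library 1) calls over all genes. The cause of these changes was not tested. Depth limits Kif1a, Kif5c, Kif27, Kif19a and Kif28, for which a change could not be resolved.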
